A study of Homo sapiens and Mus musculus with 26 samples.

Results

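HIF1A, EGLN1, BNIP3L, P4HA1, PDK1 and VEGFA are 6 genes of the cellular response to low oxygen, out of 8074 genes in the table of the 12 MHCC97H libraries. They were chosen by name, with their input FPKM, polysome FPKM and polysome over input in knockdown and control cells already known, so their values are given as a description, with no test. MHCC97H is a human hepatocellular carcinoma cell line. METTL1, the enzyme that places N7-methylguanosine on a set of tRNAs, was knocked down by a short hairpin RNA, and the knockdown cells carry the label shMETTL1-2, so they stand for a single hairpin. The control cells carry the labels NC and wild type. From each, total (input) RNA and mRNA bound to polyribosomes were sequenced in 3 repeats, which gives the 4 groups NC input, shMETTL1-2 input, NC polysome and shMETTL1-2 polysome. The labels name no low-oxygen treatment for any group, give DMEM as the medium of the cell lines, and do not say what NC carries.

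HIF1A is the oxygen-regulated subunit of hypoxia-inducible factor 1. When oxygen is available, the prolyl hydroxylase EGLN1 (PHD2) marks the HIF1A protein for destruction through the VHL ubiquitin ligase, and when oxygen is short the protein persists, pairs with ARNT and binds hypoxia response elements near its target genes. EGLN1 itself, the mitophagy receptor BNIP3L (NIX), the collagen prolyl hydroxylase subunit P4HA1, the pyruvate dehydrogenase kinase PDK1 and the angiogenic growth factor VEGFA are among its known targets. Liver tumors are often short of oxygen, and this pathway is linked there to vessel growth and to a switch of metabolism.

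The core of a hypoxia response element reads ACGTG or GCGTG, and the promoters that hold the first of these are shown because 3 of the listed target genes share it within 250 bases before a start of transcription. RefSeq promoter windows were found for 4 of the 6 genes, with 2 windows each for HIF1A and PDK1. The sequences are those of GRCh38.p14, written 5′ to 3′ on the strand of the gene, with ACGTG or its reverse complement CACGT in capitals. The EGLN1 window lies at chr1:231422288-231422537 on the minus strand, the P4HA1 window at chr10:73096867-73097116 on the minus strand and the PDK1 window, the second of its pair, at chr2:172555840-172556089 on the plus strand.
EGLN1: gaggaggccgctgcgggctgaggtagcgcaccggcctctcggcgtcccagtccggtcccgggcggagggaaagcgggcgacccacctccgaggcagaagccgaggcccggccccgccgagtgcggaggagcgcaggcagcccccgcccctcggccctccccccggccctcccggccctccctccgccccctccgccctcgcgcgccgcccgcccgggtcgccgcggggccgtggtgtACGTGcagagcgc
P4HA1: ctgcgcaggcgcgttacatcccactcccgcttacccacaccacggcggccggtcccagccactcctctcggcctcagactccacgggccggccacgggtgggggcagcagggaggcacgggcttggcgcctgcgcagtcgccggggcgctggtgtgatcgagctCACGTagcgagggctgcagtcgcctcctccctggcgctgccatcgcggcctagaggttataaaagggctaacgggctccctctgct
PDK1: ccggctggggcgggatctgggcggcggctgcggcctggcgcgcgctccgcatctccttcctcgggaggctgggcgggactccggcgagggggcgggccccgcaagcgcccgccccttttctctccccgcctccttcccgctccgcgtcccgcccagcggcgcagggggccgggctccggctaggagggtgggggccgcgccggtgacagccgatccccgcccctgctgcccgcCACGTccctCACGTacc
ACGTG occurs once in the EGLN1 window, 13 bases before the start, once in P4HA1, 86 bases before it, and in 2 places in PDK1, 17 and 8 bases before it (counted to the first base of the match). None of these matches lies in CACGTG, the E-box that contains the same letters. The first HIF1A window holds GCGTG once and no ACGTG. The second HIF1A window and the first PDK1 window hold neither. Searched on both strands of the same 250 bases, ACGTG was in 18.5% of all 35097 RefSeq promoter windows and in 23.1% of the 9674 windows of genes in the table, and GCGTG in 32.2% and 45.2%. A match describes the letters only.

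The input libraries of repeat 1 stood apart, and this bears on every level given for input RNA. For the 6 genes, the FPKM of repeat 1 (fragments scaled to gene length and library size) was 2.38 to 7.36 times the mean of repeats 2 and 3 in NC input and 2.16 to 8.34 times in shMETTL1-2 input. Over all genes the median difference of repeat 1 from repeats 2 and 3 was 0.67 on the log2 scale in each of these groups, with an SD over genes of 1.20 in each. It was 0.02 and 0.05 in NC and shMETTL1-2 polysome RNA, with an SD over genes of 0.46 and 0.64. Polysome repeat 1 also stood apart, since its deviations from the group mean in NC cells correlated across genes with those of shMETTL1-2 repeat 1 (r = 0.776). They ran opposite to those of shMETTL1-2 repeats 2 and 3 (r = -0.674 and -0.803). The latter adds little, because the deviations of the 3 repeats cancel out within a group. The labels do not tie repeats to separate cultures, and the p-values below reflect only how these libraries vary, which may be technical. The lowest FPKM in the table is 1, and the depth behind the values is unknown. METTL1, the targeted gene, was at 47.9, 39.3 and 36.03 FPKM in NC input and 11.9, 18.3 and 15.3 FPKM in shMETTL1-2 input. On polysomes METTL1 was at 45.3, 43.8 and 38.2 FPKM in NC and 8.29, 22.9 and 25.6 FPKM in shMETTL1-2 cells, again without overlap. In such bulk RNA, fewer cells with a transcript and less of it per cell cannot be told apart. Of 12 liver and epithelial markers only KRT8 and KRT18 are listed, ALB and AFP are not, and none of the 18 endothelial, fibroblast and leukocyte markers is listed.

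Polysome-bound HIF1A mRNA was at 20.9, 25.06 and 24.6 FPKM in the NC repeats and at 5.96, 6.53 and 6.78 FPKM in the shMETTL1-2 repeats. All knockdown libraries were far below all control libraries, and the mean went from 23.5 ± 2.29 to 6.42 ± 0.420 FPKM (SD, n = 3 each), 3.66-fold lower. The share left on polysomes was 28.6%, 26.1% and 27.6% of the control of the same repeat. On the log2(FPKM + 1) scale, used for all differences here, this is -1.65, -1.79 and -1.72 in repeats 1, 2 and 3, and their mean has rank 6 from the lowest among the 8074 genes. In each repeat alone, HIF1A had rank 46, 5 and 5 from the lowest.

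Input HIF1A mRNA had no common direction. It was at 22.2, 3.29 and 2.98 FPKM in NC and at 18.7, 4.29 and 3.39 FPKM in shMETTL1-2 cells, lower in knockdown cells in repeat 1 and higher in repeats 2 and 3. The differences were -0.24, 0.30 and 0.14, 0.07 on average. Polysome over input was 0.939 in NC and 0.318 in shMETTL1-2 cells in repeat 1, 7.62 and 1.52 in repeat 2, and 8.24 and 2.00 in repeat 3. The ratio was thus lower in knockdown cells in each repeat, although its level also differed between repeat 1 and the other repeats. Set against the input of the same repeat, the polysome difference was -1.42, -2.09 and -1.86. HIF1A lies on chromosome 14 from 61695513 to 61748258 (GRCh38.p14), where the antisense RNAs HIF1A-AS1, HIF1A-AS2 and HIF1A-AS3 overlap it, and whether the counting used strand is not given in the sources used here.

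Polysome-bound EGLN1, the oxygen sensor that acts on HIF1A, was at 27.7, 25.9 and 26.2 FPKM in NC and 11.4, 13.5 and 11.9 FPKM in shMETTL1-2 cells. The groups did not overlap, and 41.3%, 52.2% and 45.3% of the control level was left. Its polysome differences were -1.21, -0.89 and -1.08. EGLN1 was also lower in input RNA in each repeat, at 23.6, 3.19 and 3.23 FPKM in NC against 16.2, 2.53 and 2.35 FPKM in shMETTL1-2 cells, a mean difference of -0.37 between groups that overlapped. After subtraction of the input difference, -0.69, -0.64 and -0.74 were left in the repeats. EGLN1 lies on chromosome 1 from 231363756 to 231422287.

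P4HA1, the catalytic subunit of the enzyme that hydroxylates prolines of collagen, was at 7.64, 6.56 and 6.43 FPKM in NC and 3.67, 4.03 and 4.44 FPKM in shMETTL1-2 polysome RNA. The groups did not overlap, and the differences were -0.89, -0.59 and -0.45. In input RNA P4HA1 was at 6.39, 2.50 and 2.28 FPKM in NC and 5.39, 2.49 and 2.51 FPKM in knockdown cells, with no common direction. PDK1, which phosphorylates and so inhibits pyruvate dehydrogenase, was the lowest of the 6 genes, at 4.08, 3.66 and 3.68 FPKM in NC and 2.44, 2.43 and 2.37 FPKM in shMETTL1-2 polysome RNA. Its groups did not overlap either, with differences of -0.56, -0.44 and -0.47 that understate the change of a gene so near the pseudocount of 1. Input PDK1 was at 3.45, 1.41 and 1.49 FPKM in NC and 3.47, 1.80 and 1.23 FPKM in knockdown cells, again without a common direction. P4HA1 lies on chromosome 10 from 73007217 to 73096866 and PDK1 on chromosome 2 from 172555373 to 172724312, where PDK1-AS1 overlaps it.

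BNIP3L, a receptor on mitochondria that marks them for removal by autophagy, was at 10.6, 9.44 and 9.30 FPKM in NC and 7.16, 6.33 and 5.98 FPKM in shMETTL1-2 polysome RNA. The groups did not overlap, and the differences of -0.50, -0.51 and -0.56 had the smallest SD over repeats of the 6 genes, 0.03. Input BNIP3L was at 8.61, 2.31 and 2.21 FPKM in NC and 9.09, 2.39 and 1.96 FPKM in knockdown cells, a mean difference of -0.0041. Polysome over input was 1.23, 4.09 and 4.21 in NC and 0.788, 2.65 and 3.05 in shMETTL1-2 cells.

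VEGFA, the secreted ligand that drives vessel growth, was the exception in repeat 1. Its polysome level was 12.2, 10.6 and 10.9 FPKM in NC and 12.1, 6.01 and 7.05 FPKM in shMETTL1-2 cells, so the groups overlapped. The differences were -0.0088 in repeat 1 and -0.73 and -0.57 in repeats 2 and 3. In input RNA VEGFA was at 12.98, 2.11 and 1.91 FPKM in NC and at 12.85, 1.55 and 1.53 FPKM in knockdown cells, lower in each repeat. The groups overlapped, with a mean difference of -0.17. Polysome over input was 0.938 in NC and 0.941 in shMETTL1-2 cells in repeat 1, 5.03 and 3.88 in repeat 2, and 5.73 and 4.61 in repeat 3. Its polysome difference relative to input was thus 0.0047 in repeat 1 and -0.44 and -0.37 in repeats 2 and 3, so the ratio was lower in knockdown cells in those repeats and close to that of control in repeat 1. VEGFA lies on chromosome 6 from 43770211 to 43786487.

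In NC polysome RNA the 6 genes kept a strict order by FPKM, a value per kilobase that can be compared between genes: EGLN1 (26.6 ± 0.955), HIF1A (23.5 ± 2.29), VEGFA (11.2 ± 0.818), BNIP3L (9.77 ± 0.702), P4HA1 (6.88 ± 0.664) and PDK1 (3.81 ± 0.237, SD, n = 3 each), with no overlap between neighbours. In shMETTL1-2 polysome RNA HIF1A stood below EGLN1, VEGFA and BNIP3L, at 6.42 ± 0.420 FPKM, next to BNIP3L at 6.49 ± 0.606 FPKM. There the neighbours EGLN1 and VEGFA (8.38 ± 3.25), VEGFA and BNIP3L, and BNIP3L and HIF1A overlapped, while P4HA1 (4.05 ± 0.385) and PDK1 (2.41 ± 0.038) stayed apart. In NC and shMETTL1-2 input RNA all neighbours overlapped.

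**Figure D1:**
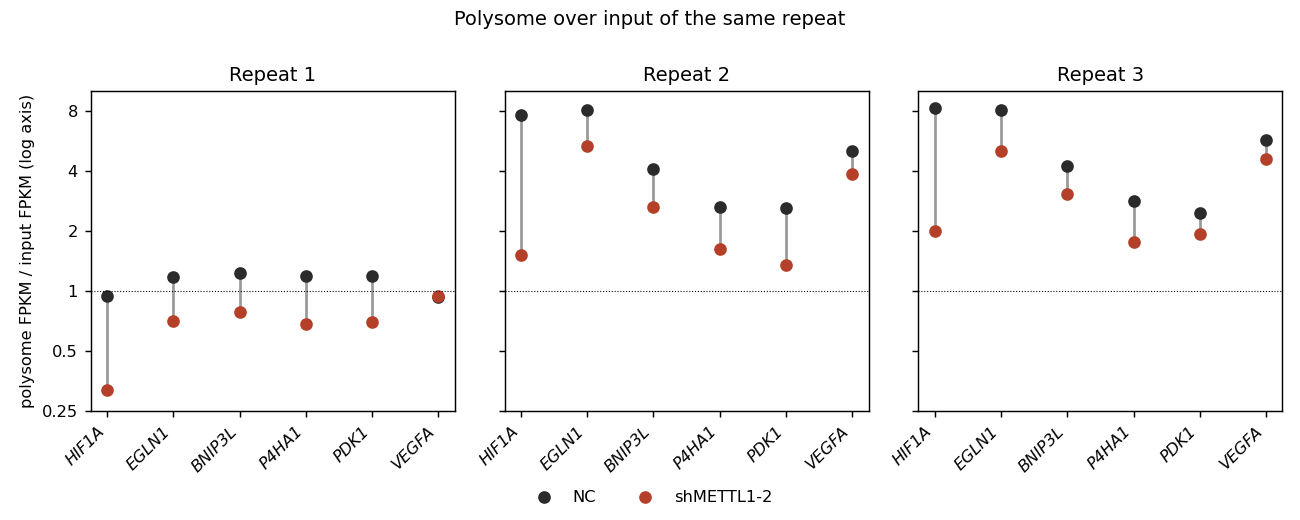
Polysome FPKM divided by input FPKM of the same repeat (log axis) for each gene in NC (black) and shMETTL1-2 (red) cells. Knockdown lies below control for each gene and repeat, except VEGFA of repeat 1, and all ratios of repeat 1 lie between 0.318 and 1.23 while those of repeats 2 and 3 lie between 1.35 and 8.24.

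Of the 6 genes, 5 had shMETTL1-2 polysome libraries that were all below the NC libraries, where 26.5% of all genes did. All 6 were lower in all 3 repeats (38.6% of genes) and 0 higher (30.3%). The polysome difference minus the input difference, a measure of translation efficiency, was below 0 in all 3 repeats for 5 of the 6 (35.1% of genes) and above 0 for 0 (36.1%). For 0 of the 6 did polysome minus input differ without overlap between shMETTL1-2 and NC (6.08% of genes lower, 10.6% higher). In input RNA 0 of the 6 had groups that did not overlap, lower (2.42% of genes) or higher (1.91%). EGLN1 and VEGFA were lower in input RNA in all 3 repeats, 2 of the 6 (22.1% of genes), and 0 were higher (16.6%). In NC cells polysome levels were above input without overlap in 4 of the 6 genes (18.7% of genes), that is all but HIF1A and VEGFA, and 0 were below input without overlap (3.01%). The same 4 were above input in all 3 repeats (42.7% of genes) and 0 below (12.9%). These counts describe genes picked with these values known, and nothing is read from them.

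Polysome differences moved with the genomic span of the gene over the table, with a Spearman correlation of -0.407, -0.410 and -0.419 in repeats 1, 2 and 3 over 8068 genes, given as a description since all genes share the libraries. The spans of HIF1A (52.7 kb), EGLN1 (58.5 kb), BNIP3L (30.1 kb), P4HA1 (89.7 kb) and PDK1 (168.9 kb) are above the median of 26.4 kb, and that of VEGFA (16.3 kb) is below. With the trend on span removed from each library, the mean polysome difference was -1.45 for HIF1A, -0.76 for EGLN1, -0.42 for VEGFA, -0.37 for BNIP3L, -0.30 for P4HA1 and -0.13 for PDK1. Setting all libraries to equal medians moved every polysome difference up by 0.17, to -1.55 for HIF1A and -0.26 for VEGFA.

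The rest of the pathway, as a group, had a median polysome difference near that of all genes. Of 106 further genes of oxygen sensing and the hypoxia response, in 12 lists, 75 are in the table. Their median polysome difference was -0.01, where that of all genes was -0.03. The medians lay further apart in input RNA, at -0.10 against -0.03 for all genes. For polysome relative to input they were 0.10 and 0.04. Knockdown polysome libraries were all below control in 24.0% of the 75 (18 genes, 26.5% of all genes). They were all above in 13.3% (10 genes, 13.7% of all genes). In limma over all 12 libraries 0 of 75 passed in polysome RNA, input RNA, translation efficiency or NC polysome against input, and neither did any gene of the table (0%). The unadjusted p was below 0.05 for 609, 134, 336 and 1735 genes. METTL1, the targeted gene, was not called in input or polysome RNA either, though its groups did not overlap. Its limma adjusted p in polysome RNA was 0.602, and 0.0765 in the fit of the 6 polysome libraries. A lack of calls in these fits thus does not show that a gene was unchanged. In the fit of the 6 polysome libraries 10 of 75 passed as lower, 13.3% against 12.7% of all genes, and 0 as higher (1.09% of all genes). When that fit was blocked on the repeat number, 21 of 75 passed as lower (28% of all genes) and 7 as higher (14.1%). With a term for repeat 1 in each library kind over the 12 libraries, 27 passed as lower (32.5% of all genes) and 14 as higher (20.2%) in polysome RNA, 8 (3.55%) and 4 (2.46%) in input RNA, and 17 (27%) and 14 (15.5%) in translation efficiency. In NC polysome against input that term gave 10 lower (17.2%) and 39 higher (56.3%).

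ARNT, the partner of HIF1A, was at 13.9 ± 0.976 FPKM in NC and 11.8 ± 1.37 FPKM in shMETTL1-2 polysome RNA (SD, n = 3 each), a difference of -0.22 (limma adjusted p = 0.308 in the fit of the polysome libraries), and it was at 0.10 with the trend on span removed. Of the 8 measured genes of oxygen sensing and HIF turnover, 7 were above 0 and 0 passed, with a list median of 0.15. EGLN2, a relative of EGLN1, was at 0.22, and RBX1, the RING subunit of the VHL ligase, at 0.26. Among 5 coactivators and chaperones, HSP90AA1, a chaperone of HIF1A, fell from 486 ± 1.55 to 248 ± 77.6 FPKM in the fit of the polysome libraries (difference -1.02, limma adjusted p = 0.0440), although its input was 568 ± 145 and 1036 ± 540 FPKM. HSP90AA1 shares near-identical sequence with pseudogenes, so its value is uncertain. RUVBL2, an ATPase, was at 0.44 and did not pass in that fit, but did with the replicate block (limma adjusted p = 0.00795, against 0.214 without it).

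Of 7 measured genes of pyruvate dehydrogenase, the complex that PDK1 acts on, its other kinases and its phosphatase, 5 were below 0. PDK2, the only other kinase measured, was at 0.52. In the fit of the polysome libraries 2 of the 7 passed, both as lower, as did 12.7% of all genes. DLD, its dihydrolipoyl dehydrogenase, was at 52.2 ± 0.403 FPKM in NC and 22.5 ± 4.09 FPKM in shMETTL1-2 polysome RNA, and the binding protein PDHX at 15.2 ± 0.703 and 7.47 ± 0.786 FPKM (SD, n = 3 each). Both fell in the fit of the polysome libraries, by 1.19 (limma adjusted p = 0.00855) and by 0.94 (0.00974) on the log2 scale. In input RNA the mean differences of DLD and PDHX were 0.10 and -0.30. The list median in polysome RNA was -0.13, where that of all genes was -0.03.

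Among targets that act outside the cell or on iron, TFRC, the transferrin receptor, fell by 1.32, from 66.2 ± 10.2 to 25.8 ± 1.55 FPKM (limma adjusted p = 0.00760 in the fit of the polysome libraries). PLOD2, a lysyl hydroxylase of collagen, fell by 1.06 (0.0333), while LOXL2, a lysyl oxidase, was at -0.53 and missed the threshold (0.0508; 0.00912 with the replicate block). NRP1, a coreceptor of VEGFA, fell by 0.49 (0.0474). PGF, a VEGF family ligand, was at 0.48 and ERO1A, an oxidase of the endoplasmic reticulum, at -0.52, and neither passed, though ERO1A did with the replicate block (0.0272). These adjusted p are two-sided limma values of the same fit, adjusted over all 8074 genes. In input RNA the mean difference was -0.88 for LOXL2, more than its polysome difference, -0.41 for TFRC and -0.27 for PLOD2. It was above 0 for NRP1 (0.23), PGF (0.25) and ERO1A (0.14). LOXL2 relative to input was thus at 0.35.

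Of the metabolic, survival and chromatin targets, UGP2, which makes UDP-glucose for glycogen, fell by 1.03 (limma adjusted p = 0.0101 in the fit of the polysome libraries), MCL1, an inhibitor of apoptosis, by 0.58 (0.0188), and KDM3A, a histone demethylase, by 0.66 (0.0363). GBE1, the glycogen branching enzyme, was at -1.007 and the repressor BHLHE40 at -0.69 without passing, and both passed with the replicate block (limma adjusted p = 0.0014 and 0.0143). Of 17 glycolysis genes 0 passed and 11 were above 0, with a list median of 0.09. ALDOC, an aldolase, was at 0.35 and TPI1, triosephosphate isomerase, at 0.37, and both passed as higher with the replicate block (limma adjusted p = 0.0425 and 0.0172). With that block PFKL of the same list, at 0.32, also passed as higher, and LDHA, at -0.44, passed as lower. In repeats 1, 2 and 3 the differences of TPI1 were 0.41, 0.33 and 0.38. HILPDA, a lipid droplet protein, was at 0.27, EPAS1, the second oxygen-regulated HIF subunit, at -0.37 and CA12, a carbonic anhydrase, at 0.19. None of these 3 passed in the unblocked fit of the polysome libraries. In input RNA the mean difference was -0.55 for BHLHE40, -0.33 for LDHA, -0.18 for TPI1, -0.16 for ALDOC and -0.03 for PFKL. It was 0.04 for UGP2, -0.02 for MCL1, 0.0002 for KDM3A and -0.05 for GBE1. HILPDA was at 0.11 in input RNA, EPAS1 at -0.10 and CA12 at 0.64. Calls in the unblocked fit were lost when 1 of NC polysome repeat 2, NC polysome repeat 3 or shMETTL1-2 polysome repeat 3 was left out (0 of 75 each) and when repeats 2 and 3 were averaged as 1 sample (0 of 75, limma adjusted p = 0.223 for TFRC, DLD and UGP2). They numbered 6 without NC polysome repeat 1, 20 without shMETTL1-2 polysome repeat 1 (18 lower, 2 higher) and 7 without its repeat 2. The 6 and the 7 were all lower. The same 3 fits called 563, 2551 and 584 of all 8074 genes, with 6.69%, 23.4% and 7.06% of all genes called as lower. Where 0 of the 75 passed, 0 genes of the table passed either, so these shifts in calls are not particular to the hypoxia genes.

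Relatives from the same families, paired with the 6 genes after values were seen, differed from them in direction in polysome RNA in 4 of 6 pairs, without a test. PDK2 was at 5.94, 5.40 and 5.90 FPKM in NC and 12.1, 6.77 and 7.82 FPKM in shMETTL1-2 polysome RNA, above control in each repeat. VEGFB was at 38.1, 62.4 and 61.7 FPKM in NC and 71.6, 65.8 and 76.9 FPKM in knockdown cells, also above. P4HA2 differed by 0.85, 0.04 and 0.10 and EGLN2 by 0.39, 0.07 and 0.20, whereas BNIP3 was at -0.28, -0.26 and -0.33 and EPAS1 at -0.14, -0.47 and -0.49. Input RNA of PDK2 was also higher in each repeat (0.70, 0.24 and 0.05). The input differences were 0.59, -0.23 and -0.15 for VEGFB and 0.62, -0.07 and -0.20 for P4HA2. They were 0.003, -0.04 and 0.02 for EGLN2, 0.25, 0.06 and 0.07 for BNIP3 and -0.15, -0.07 and -0.10 for EPAS1. In polysome RNA, removing the trend on span left PDK2 at 0.55, P4HA2 at 0.54, VEGFB at 0.24, EGLN2 at 0.12, BNIP3 at -0.31 and EPAS1 at -0.02. The spans of PDK2 (17.4 kb), VEGFB (4.68 kb), EGLN2 (9.24 kb), BNIP3 (14.2 kb) and P4HA2 (37.7 kb) are shorter than those of the genes they are paired with, and that of EPAS1 (89.3 kb) is longer. The part of span in these differences was not tested. In limma with group means none of these relatives passed over all 12 libraries or in the unblocked fit of the 6 polysome libraries. A term for repeat 1 in each library kind over the 12 changed this for all but P4HA2. EPAS1 (limma adjusted p = 0.0044) and BNIP3 (0.0135) then passed as lower, as 32.5% of all genes did. PDK2 (limma adjusted p = 0.0102), EGLN2 (0.0411) and VEGFB (0.0435) passed as higher, as did 20.2% of all genes. With the replicate block in the fit of the 6 polysome libraries, PDK2 rose (limma adjusted p = 0.0297) and EPAS1 fell (limma adjusted p = 0.0374). After quantile normalization of the 6 polysome libraries, without that block, PDK2 also passed as higher (limma adjusted p = 0.0388).

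Across the 12 libraries, the genes whose log2(FPKM + 1) followed HIF1A most closely were EXOC1 (Pearson r = 0.994), RSRC2 (0.991), EIF3A (0.990), KIF2A (0.990) and ECT2 (0.989), with polysome differences from -1.06 to -1.62. Those most like VEGFA were MTX2 (0.998), CDYL (0.997), SAP30 (0.996), ACTR1B (0.996) and INTS14 (0.996), with differences from -0.23 to -0.62. Of the other 5 described genes P4HA1 was the closest to HIF1A (0.965, rank 154 of all genes) and VEGFA the least close (0.855, rank 1795). These values describe likeness over the same 12 libraries, the repeat 1 input libraries that stood apart among them.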

How the data were processed

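RNA of MHCC97H cells was measured in 12 libraries, input and polyribosome-bound, in 3 NC and 3 shMETTL1-2 repeats. The authors deposited FPKM values per gene. Per the submitters' processing notes the tools were Bowtie2 and HTSeq and the build GRCh38, with no role or version. Nothing used here tells how strand or annotation was handled. Columns whose header says treated were matched to the polysome titles of the same cells and repeat number. Tests ran on log2(FPKM + 1), which understates changes of low genes, in limma 3.58.1 (R 4.3.3): group means over all 12 libraries, empirical Bayes with an intensity trend, two-sided, Benjamini-Hochberg adjustment over 8074 genes, called at an adjusted p of 0.05. Requiring an FPKM of 1 in 3 or more libraries dropped 0 genes. The fit was tested on simulated data whose spread came from repeats 2 and 3, with no shift of repeat 1. That test therefore does not cover the repeat 1 shift seen in these libraries. Members, lists and rules were chosen with earlier results of these data known. Genes named are the 6, METTL1, the 2 genes of each list with the smallest polysome p, and the 5 most like HIF1A and VEGFA. PLOD2, MIF, BNIP3, P4HA2, PDK2, VEGFB, ELOB, PFKL and LDHA were picked after their values were seen. Some genes that the rule names are not reported here. Libraries of the same repeat number deviated alike from group means (lowest r across genes 0.319). The fit with the number as a block is therefore given where it changes a call of genes named from the lists by smallest p. Repeats 2 and 3 with different numbers also deviated alike (lowest 0.333). The small RNA tables were not used here.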

Additional observations from a re-analysis of the deposited data

Results flagged for a closer look

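Of the 75 further hypoxia genes, these had input levels that were higher and polysome levels that were lower in knockdown cells in each of the 3 repeats, with the polysome difference relative to input given for each: HSP90AA1 (-1.73), FUNDC1, a mitophagy receptor (-0.825), ERO1A (-0.655), WSB1, an adaptor of a ubiquitin ligase (-0.606), and BNIP3 (-0.417). The glycolytic enzymes ALDOA (0.565) and PKM (0.453) had the opposite pattern, lower in input and higher on polysomes in each repeat. In the repeats, HSP90AA1 was at 0.02, 1.12 and 0.99 in input and -1.61, -0.69 and -0.76 in polysome RNA, and FUNDC1 at 0.19, 0.40 and 0.03 in input and -0.56, -0.60 and -0.70 in polysome RNA. The interaction did not pass for any of them in limma with group means over all 12 libraries (0 genes of the table passed). With a term for repeat 1 in each library kind, each of them passed in the direction given. So did 27% of all genes as lower and 15.5% as higher, and the genes were picked by these same values.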

How the results depend on the processing

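The polysome differences of the 6 genes were below 0 under every alternative run, from -1.85 to -1.45 for HIF1A, -1.13 to -0.76 for EGLN1, -0.59 to -0.27 for BNIP3L, -0.75 to -0.30 for P4HA1, -0.63 to -0.13 for PDK1 and -0.70 to -0.21 for VEGFA. The genes were picked with these values known, and many alternatives cannot move the differences. Changing the model or the filter, or leaving out an input library, keeps each of them as it was. Where the polysome groups do not overlap, leaving out 1 polysome library cannot change the sign. The common sign is therefore no further evidence. Relative to input, HIF1A, P4HA1 and PDK1 were below 0 under every alternative, while EGLN1 (0.08) and BNIP3L (0.04) were above it without knockdown input replicate 1, and VEGFA reached 0.55. Input differences of each of the 6 genes changed sign under 3 to 6 of the alternatives. For EGLN1 and VEGFA this came only when 1 input library was left out of 1 group, which weights repeat 1 unequally between groups. Within each repeat both were lower in knockdown input. In polysome RNA, 0 of 8074 genes and 0 of the 75 further hypoxia genes passed in the fit of 12, 1117 and 10 in that of the 6 polysome libraries, and 4260 and 41 with a term for repeat 1 in each library kind. The same term gave 486 and 12 calls in input RNA, 3434 and 31 in translation efficiency and 5928 and 49 for polysome against input in NC cells. With the replicate block over all 12 libraries 1 gene passed in polysome and 1 in input RNA, and the block left 0 of the 75 called. Over the polysome libraries alone, alternatives added after the data were seen gave 3392 and 28 calls with the replicate block (the 28 being 21 lower and 7 higher), 902 and 9 with quantile normalization, 583 and 6 without the trend on span, and 0 and 0 with repeats 2 and 3 averaged. Leaving out libraries gave 0 to 5209 and 0 to 47 calls in polysome RNA, 0 to 4092 and 0 to 45 in input RNA, 0 to 5410 and 0 to 50 in translation efficiency and 0 to 7111 and 0 to 67 for polysome against input in NC cells. The highest of each came without repeat 1 in all groups, an alternative added after the data were seen, and the cause was not tested. Over the polysome libraries alone the counts were 563 and 6 without NC replicate 1, 2551 and 20 without knockdown replicate 1, 584 and 7 without knockdown replicate 2, and 0 and 0 without any 1 of the other 3. Lower calls made up 92.1% of those of the polysome libraries alone, 66.5% with the replicate block there and 66.6% with quantile normalization. ARNT turned to 0.10 without the trend on span, in both fits.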
